A study of Mus musculus with 8 samples.

Results

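Cholesterol synthesis and cholesterol export were followed through 8 genes in the cell classes of the mouse brain after peripheral LPS exposure. The genes were chosen by name and all 8 were among the 32227 genes of the deposited tables. Male C57Bl/6J mice, aged 5 to 6 months by the labels, had received 1 intraperitoneal injection of lipopolysaccharide (LPS, the endotoxin of Gram-negative bacteria) at 15000000 EU/kg or of saline, and CD45+ cells were separated magnetically from their brains 24 hours later. Dissociation was carried out in DMSO, the solvent, or with inhibitors of transcription and translation (actinomycin D, triptolide and anisomycin), which gave 4 combinations (saline with DMSO, saline with inhibitors, LPS with DMSO and LPS with inhibitors) of 2 mice each. Each mouse gave 1 single-cell library made by PIPseq, which captures cells in templated droplets and counts each RNA molecule once by a unique molecular identifier (UMI). The brains were not perfused, so blood cells within vessels were part of the samples, and the study holds 1 dose and 1 time point.

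Cholesterol is made from acetyl-CoA by way of mevalonate, isoprenoids, squalene and lanosterol. When sterol in the membrane of the endoplasmic reticulum is scarce, the transcription factor SREBP-2 is released by processing and raises the genes of this route and *Insig1*. When oxysterols build up, the liver X receptors (LXR) raise genes of export, among them *Abca1* and *Abcg1*. In the adult brain much cholesterol is made by glia and carried in particles with apolipoprotein E, and microglia take up and export the cholesterol of myelin and debris.

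Of the enzymes, *Hmgcs1* (ENSMUSG00000093930) makes HMG-CoA ahead of mevalonate, *Idi1* (ENSMUSG00000058258) converts the isoprenoid building blocks into each other, *Fdps* (ENSMUSG00000059743) joins them to farnesyl diphosphate, *Sqle* (ENSMUSG00000022351) adds oxygen to squalene, and *Cyp51* (ENSMUSG00000001467) removes a methyl group from lanosterol. *Insig1* (ENSMUSG00000045294) encodes a protein that holds the SREBP complex in the endoplasmic reticulum. *Abca1* (ENSMUSG00000015243) encodes the transporter that loads cholesterol and phospholipid onto lipid-poor apolipoproteins, and *Abcg1* (ENSMUSG00000024030) one that passes cholesterol to formed particles.

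The promoter windows of 3 members are shown with their matches to the motifs named below. RefSeq windows of 250 bases before the start of the gene (build GRCm38.p6, which is not the build of the counts) were found for 5 of the 8 members, of which 3 are printed 5′ to 3′ on the strand of the gene. They lie at chr13:119690101-119690350 on the plus strand for *Hmgcs1*, chr5:28071162-28071411 on the plus strand for *Insig1* and chr4:53159896-53160145 on the minus strand for *Abca1*. Capitals mark matches, on either strand, to TCACNCCAC (a form of the sterol regulatory element), CACGTG (an E-box), CCAAT (read as ATTGG on the other strand) and a spaced repeat of the LXR type (GGTTA and GGTCA with any 5 bases between them).
Hmgcs1: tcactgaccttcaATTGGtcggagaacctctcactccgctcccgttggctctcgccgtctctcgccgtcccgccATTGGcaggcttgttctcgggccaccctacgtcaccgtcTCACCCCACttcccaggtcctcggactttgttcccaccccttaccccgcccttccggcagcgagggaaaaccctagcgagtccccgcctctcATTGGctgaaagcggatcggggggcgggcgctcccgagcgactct
Insig1: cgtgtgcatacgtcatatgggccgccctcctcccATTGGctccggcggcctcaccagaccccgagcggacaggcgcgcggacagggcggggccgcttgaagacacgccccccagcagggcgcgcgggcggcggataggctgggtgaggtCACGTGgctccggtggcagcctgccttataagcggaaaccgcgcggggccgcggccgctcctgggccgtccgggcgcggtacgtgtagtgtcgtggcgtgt
Abca1: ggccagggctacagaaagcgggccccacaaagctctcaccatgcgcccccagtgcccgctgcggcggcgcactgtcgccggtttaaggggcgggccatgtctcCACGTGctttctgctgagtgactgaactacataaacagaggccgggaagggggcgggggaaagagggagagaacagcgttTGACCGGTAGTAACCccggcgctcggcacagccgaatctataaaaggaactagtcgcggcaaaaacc
The first of these motifs stood in the *Hmgcs1* window, 137 bases before the start, and is held by 1.05% of all 32851 windows. CACGTG stood in the windows of *Insig1* and *Abca1*, 101 and 147 bases before the start, and in 6.02% of all windows. CCAAT had 3 matches for *Hmgcs1*, 1 for *Insig1*, 2 for *Idi1*, 1 for *Cyp51* and 0 for *Abca1*, with at least 1 match in 33.8% of all windows. The spaced repeat stood in the *Abca1* window, 67 bases before the start and on the other strand, and in 0.0457% of all windows. The windows of *Insig1*, *Idi1* and *Cyp51* held neither the sterol regulatory element in this form nor the spaced repeat. No motif overlapped another, and a match says only that the letters are there.

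Within the quality limits were 119053 cells, 12039 to 17364 per library, and 105853 of them (88.9%) could be placed in 1 class by its markers. Total UMIs ranged from 90352359 to 141182123 per library, and barcodes with 1 to 99 UMIs, taken as free RNA, held 15.5 to 33.7% of them. The median cell had 2207 to 3161 UMIs in the saline libraries and 4149 to 4763 in the LPS libraries. Barcodes found in more than 1 library numbered 125 and marked 260 cells, 0.218% of all. The 12 microglial markers, such as *P2ry12* and *Tmem119*, and all markers of the other gated classes given here were higher within their class than outside it. Cells were placed by these same markers, so this was set by the gate and is no separate check of the classes. The microglial markers themselves moved with LPS, and the median gate level of the microglia was 1.43 in saline and 0.608 in LPS libraries, on a scale where 0.35 was required. All 11 immediate-early genes tested were higher in DMSO than in inhibitor microglia, with a median log2 difference of 3.37, as a check of the ex vivo labels.

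In saline mice, among the 12 of 17 gated classes that were ranked, *Abca1* was highest in macrophages and *Abcg1* in microglia. The enzymes had their highest means in other classes. Oligodendrocytes and leptomeningeal cells, with at least 10 cells in only 2 saline libraries each, were not ranked. Oligodendrocytes held 100 UMIs of *Hmgcs1*, 83 of *Fdps* and 32 of *Cyp51* over these libraries, so every highest mean below is among the ranked classes. Levels are given as CPM, the UMIs of a gene per 1000000 UMIs of its class in a library. *Abca1* stood at 530 ± 25.5 CPM in macrophages, at 294 ± 24.4 in microglia and at 177 ± 28.5 in ependymal cells (SD, n = 4 libraries each), and every library of each of these classes lay above every library of the class that followed. Next came endothelial cells at 78.5 ± 14.1, whose libraries overlapped those of the classes below. *Abcg1* was highest in microglia, at 132 ± 4.87, with every library above those of macrophages (54.4 ± 7.38). From macrophages down, each class overlapped the next. *Sqle* had the opposite place, with 143 ± 26.3 in ependymal cells and 1.73 ± 0.403 in microglia, the lowest mean of the 12 classes. *Idi1* was highest in dendritic cells, at 79.1 ± 72.1 in saline and 229 ± 103 in LPS libraries, from 23 and 52 UMIs in all. *Fdps* had its highest saline means in monocytes (67.5 ± 26.8), choroid plexus cells (61.4 ± 7.72), pericytes (61.0 ± 40.0) and endothelial cells (60.8 ± 6.20), which overlapped. For *Hmgcs1*, *Insig1* and *Cyp51* no class stood clear at the top of the saline order, where the means were 49.8 ± 19.0 in choroid plexus cells, 42.3 ± 13.04 in endothelial cells and 36.7 ± 26.9 in dendritic cells. In free RNA of saline libraries the levels were 218 ± 43.9 for *Abca1*, 74.7 ± 7.85 for *Abcg1*, 25.4 ± 1.83 for *Hmgcs1* and 32.0 ± 6.92 for *Fdps*, and free RNA made up an estimated 3.32 to 8.21% of the UMIs of microglia and 0 to 36.2% of those of the other gated classes.

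**Figure D1:**
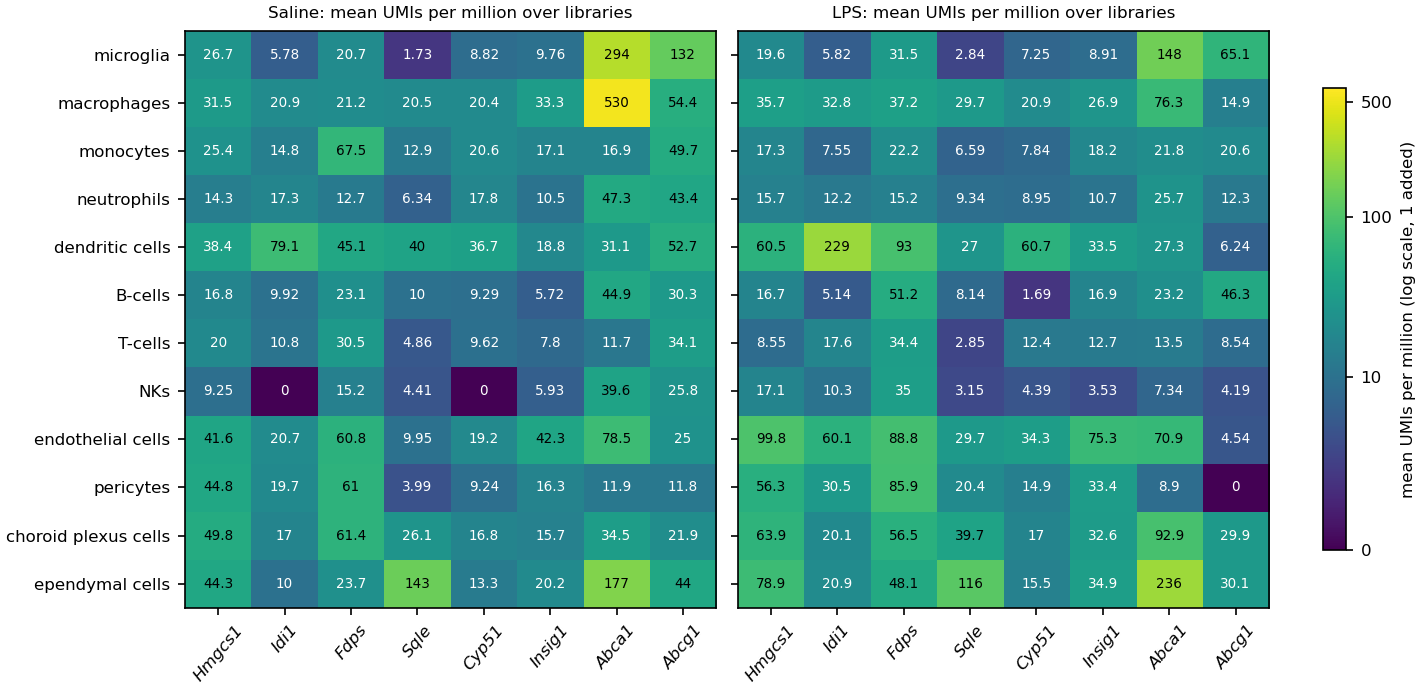
Mean CPM of each of the 8 genes (columns) in 12 cell classes (rows) over the saline libraries (left) and the LPS libraries (right), with colour on a log scale after 1 was added. In saline, *Abca1* reached 530 in macrophages and 294 in microglia, and in LPS *Idi1* reached 229 in dendritic cells and *Hmgcs1* 99.8 in endothelial cells.

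LPS reached many genes of microglia, and the scale on which a change is read matters for this class. *Saa3*, which encodes an acute phase protein, rose from 0.0121 to 3.33% of all microglial UMIs, *Fth1*, which encodes ferritin heavy chain, from 0.214 to 2.11%, and the ribosomal protein genes from 8.32 to 17.4%. On CPM of the library total, the median gene differed by -0.94 (log2) between LPS and saline. With TMM scaling, which sets the bulk of genes level between libraries and was the scale of the tests, the median gene differed by -0.19. The factors were 1.19 to 1.41 in saline and 0.696 to 0.832 in LPS libraries. Both scales are given for the members, and for the other named genes TMM values are given unless stated. A gene was called when its adjusted p was under 0.05 in the quasi-likelihood fit of edgeR, adjusted by Benjamini and Hochberg over all genes tested. In microglia 65.3% of 20375 genes were called with TMM, 30.0% of genes higher and 35.3% lower, and with library totals 14.1% higher and 67.5% lower.

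In microglia *Fdps* and *Sqle* were higher with LPS on both scales, *Abcg1* was lower on both, and the calls of the other 5 members depended on the scale. With TMM scaling 6 of the 8 members were called higher (*Fdps*, *Sqle*, *Idi1*, *Insig1*, *Cyp51* and *Hmgcs1*) and 1 lower (*Abcg1*). With library totals 2 were called higher (*Fdps* and *Sqle*) and 3 lower (*Hmgcs1*, *Abca1* and *Abcg1*). The values below are CPM of the library total, given for the DMSO libraries 1 and 2 and then the inhibitor libraries 1 and 2.

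*Fdps* stood at 17.6, 21.5, 20.5 and 23.2 in saline microglia and at 27.6, 33.6, 30.5 and 34.3 in LPS microglia. The lowest LPS library exceeded the highest saline library, and the log2 difference was 1.36 ± 0.15 (SE, adjusted p = 5.55e-06) with TMM and 0.61 (adjusted p = 0.000309) with library totals. *Sqle* stood at 1.55, 1.63, 1.43 and 2.33 in saline and at 2.30, 2.46, 3.52 and 3.09 in LPS. One LPS library lay just below the highest saline library on this scale, and the difference was 1.47 ± 0.23 (adjusted p = 0.00011) with TMM and 0.73 (adjusted p = 0.00838) with library totals. *Sqle* rested on few molecules, 222 UMIs in 46100 saline and 712 in 44764 LPS microglia.

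*Idi1*, *Insig1*, *Cyp51* and *Hmgcs1* were called higher with TMM but not as a share of all molecules. Their mean counts per cell, without correction for depth, were higher in LPS. *Idi1* stood at 5.34, 6.01, 5.60 and 6.16 in saline and at 5.59, 4.91, 6.60 and 6.19 in LPS, which overlapped, and differed by 0.76 ± 0.15 (adjusted p = 0.000647) with TMM and by 0.01 (adjusted p = 0.938) with library totals. *Insig1* stood at 8.67, 11.5, 9.69 and 9.15 in saline and at 9.20, 7.20, 12.1 and 7.12 in LPS, and its sign turned, from 0.60 ± 0.16 (adjusted p = 0.0061) with TMM to -0.13 (adjusted p = 0.506) with library totals. For *Cyp51* the values were 9.33, 8.59, 8.84 and 8.53 in saline and 6.14, 5.63, 9.23 and 8.02 in LPS. Its sign turned as well, from 0.47 ± 0.16 (adjusted p = 0.0179) with TMM to -0.28 (adjusted p = 0.123) with library totals. *Hmgcs1* stood at 27.5, 26.6, 26.1 and 26.6 in saline and at 21.0, 17.7, 22.0 and 17.7 in LPS. All 4 LPS libraries lay below the saline libraries on this scale, with a log2 difference of -0.45 (adjusted p = 0.00149), whereas with TMM *Hmgcs1* was higher in LPS, by 0.30 ± 0.09 (adjusted p = 0.0119). Counted per cell, *Hmgcs1* had 75.8 ± 13.9 UMIs per 1000 saline microglia and 108 ± 10.98 per 1000 LPS microglia, and the LPS libraries lay above. *Idi1* had 16.3 ± 2.00 and 32.2 ± 5.08 UMIs per 1000 cells and *Insig1* 27.5 ± 4.18 and 48.9 ± 11.2, again with the LPS libraries above, while for *Cyp51* (25.2 ± 5.34 and 40.1 ± 9.80) the libraries overlapped (SD, n = 4 for each). These counts per cell were not corrected for depth. Over all classes, the median cell had 2207 to 3161 UMIs in saline and 4149 to 4763 in LPS libraries. A higher count per cell can therefore go with an unchanged or smaller share, and the part of depth was not tested.

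The exporters *Abca1* and *Abcg1* took a smaller share of microglial molecules after LPS, by about as much as the median gene. *Abca1* stood at 315, 287, 311 and 262 in saline and at 190, 130, 168 and 105 in LPS. No LPS library reached a saline library on this scale, and the difference was -0.99 (adjusted p = 0.000112) with library totals and -0.25 ± 0.14 (adjusted p = 0.141) with TMM. *Abcg1* stood at 130, 137, 135 and 126 in saline and at 65.0, 65.4, 80.6 and 49.2 in LPS, again without overlap. Its difference was -1.02 (adjusted p = 1.46e-05) with library totals and -0.28 ± 0.11 (adjusted p = 0.0443) with TMM, and this second call was lost in 15 of 22 alternatives. Per 1000 cells, again without correction for depth, *Abca1* had 842 ± 213 UMIs in saline and 813 ± 197 in LPS microglia, which overlapped.

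**Figure D2:**
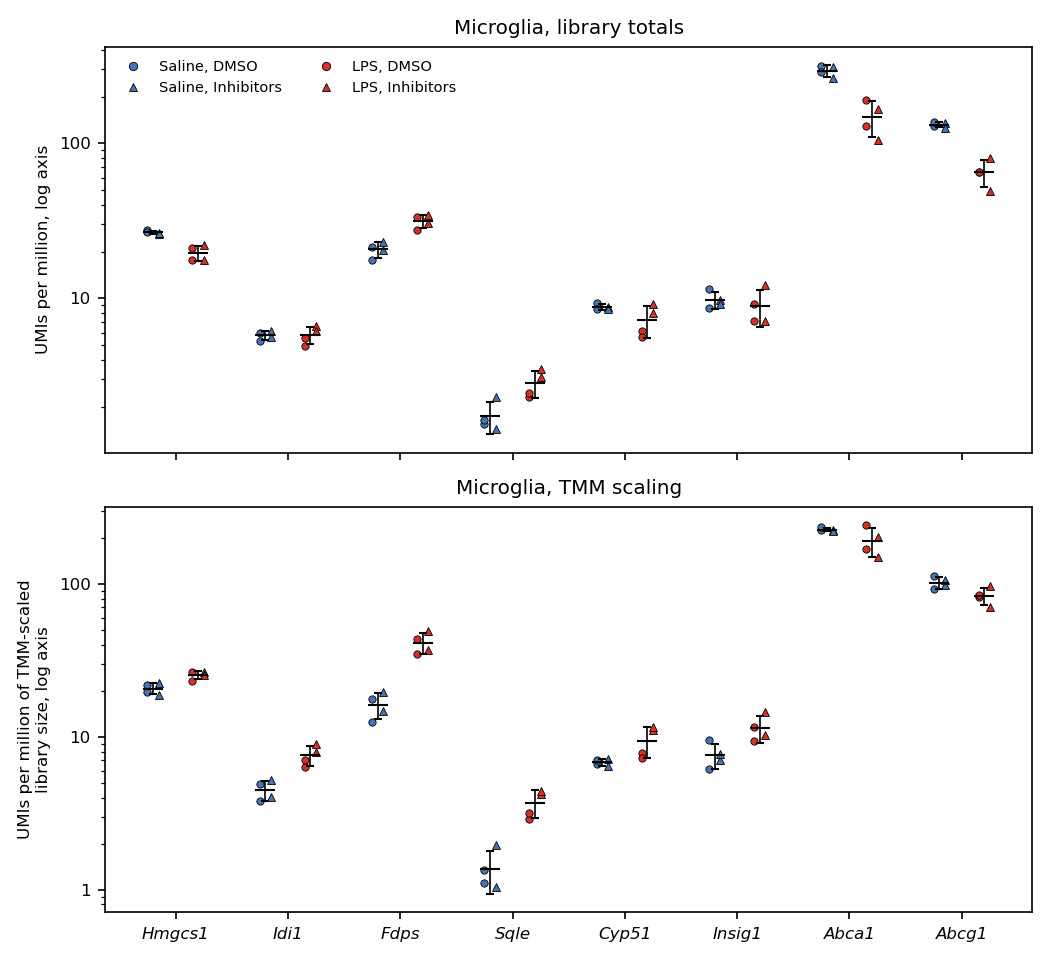
Levels of the 8 genes in microglia in each of the 8 libraries on log axes, as CPM of the library total (top) and of the TMM-scaled library size (bottom), with circles for DMSO, triangles for inhibitors, blue for saline and red for LPS, and the mean and SD of each group in black. *Fdps* and *Sqle* were higher in LPS in both panels, *Hmgcs1* was lower in LPS in the top and higher in the bottom panel, and the sign of *Insig1* and *Cyp51* turned between the panels.

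Most other enzymes of the synthesis route were also higher in microglia with TMM. Beside the members, 13 of 16 enzymes were called higher and 0 lower, where 30.0% of all genes were higher. With the 5 members the list held 21 enzymes, of which 18 were called higher and 0 lower with TMM (median log2 difference 0.76, all genes -0.19), and 7 higher and 5 lower with library totals (median 0.01, all genes -0.94). *Hsd17b7*, which encodes a late enzyme that reduces sterol ketones, rose by 2.83 ± 0.20 (adjusted p = 1.16e-07), *Pmvk* by 2.68 ± 0.20 (adjusted p = 1.46e-07) and *Mvk* by 1.78 ± 0.21 (adjusted p = 1.1e-05), of which *Mvk* and *Pmvk* encode the kinases of mevalonate and phosphomevalonate. All 3 were higher with library totals as well, by 2.07, 1.92 and 1.03. *Fdft1* and *Msmo1* were 0.53 higher with TMM (adjusted p = 0.00235 and 0.000302). With library totals both gave -0.22, where *Msmo1* was called lower (adjusted p = 0.0448) and *Fdft1* was not called (adjusted p = 0.141).

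Among the 12 genes of sterol sensing, 4 were called higher and 5 lower in microglia with TMM, and 1 higher and 9 lower with library totals. *Srebf2*, which encodes SREBP-2, differed by 0.22 ± 0.10 (adjusted p = 0.0722), and *Srebf1* by 0.62 ± 0.09 (adjusted p = 8.35e-05). With library totals *Srebf2* was called lower (-0.53, adjusted p = 0.000731) and *Srebf1* was not called (-0.12, adjusted p = 0.307). *Insig2* was lower on both scales (-0.26 ± 0.09, adjusted p = 0.0245; -1.01 with library totals). The largest differences of this list were in *Ubxn8*, an endoplasmic reticulum membrane protein (1.93 ± 0.15, adjusted p = 2.74e-07), and *Mbtps1*, the first protease that cuts SREBP (-0.79 ± 0.09, adjusted p = 6.15e-06). Of 13 genes of sterol uptake and transport 5 were higher and 6 lower with TMM, and 0 and 7 with library totals. *Lrp1*, a large receptor for apolipoprotein E, fell by 1.77 on the log2 scale (SE 0.14, adjusted p = 2.8e-07), and *Mylip*, an LXR target that encodes a ubiquitin ligase, fell by 1.46 (SE 0.19, adjusted p = 2.67e-05). *Gramd1b*, which moves cholesterol from the plasma membrane, differed by 0.99 ± 0.16 with TMM (adjusted p = 0.000119) and by 0.22 with library totals (adjusted p = 0.173).

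Of the 13 genes of LXR and efflux, which include *Abca1* and *Abcg1*, 3 were higher and 7 lower in microglia with TMM, and 1 higher and 12 lower with library totals, where 30.0% and 35.3% of all genes were higher and lower with TMM and 14.1% and 67.5% with library totals. The counts of the lists of sterol sensing, uptake, esters and fatty acids stand against the same shares. *Apoe* fell by 1.10 (SE 0.20, adjusted p = 0.000409), *Apoc1* by 1.11 (SE 0.31, adjusted p = 0.0082) and *Pltp*, the phospholipid transfer protein, by 1.68 (SE 0.24, adjusted p = 4.41e-05). *Apoc2*, which encodes the cofactor of lipoprotein lipase, rose by 5.33 ± 0.27 (adjusted p = 7.1e-09) and by 4.59 with library totals, while *Nr1h2* and *Abca7*, the other genes called higher with TMM (0.36 and 0.30) and named here after their values were seen, were called lower with library totals (-0.39 and -0.44). *Nr1h3*, which encodes LXR alpha, differed by 0.10 ± 0.17 (adjusted p = 0.615) with TMM and was called lower with library totals (-0.65, adjusted p = 0.0119). Of the 10 genes of esters and oxysterols 6 were higher and 3 lower with TMM, and 4 and 5 with library totals. The list includes *Acat1*, which encodes mitochondrial acetyl-CoA acetyltransferase and not an enzyme of sterol esters. It is counted among those higher with TMM (0.43) and those lower with library totals (-0.32). *Ch25h*, the 25-hydroxylase that makes an oxysterol, rose by 8.21 ± 0.50 (adjusted p = 3.16e-08), *Plin2*, the coat of lipid droplets, rose by 3.90 ± 0.17 (adjusted p = 2.91e-09), and *Cyp27a1*, the 27-hydroxylase, fell by 2.63 (SE 0.13, adjusted p = 6.24e-09). *Soat1*, which makes cholesterol esters, differed by 0.12 ± 0.11 (adjusted p = 0.321) with TMM and was called lower with library totals (-0.62, adjusted p = 0.000451). Of 16 genes of fatty acid synthesis 7 were higher with TMM, among them *Scd3* (3.73 ± 0.28, adjusted p = 2.1e-07), *Fasn* (1.30 ± 0.11, adjusted p = 4.74e-07) and *Elovl5* (1.22 ± 0.10, adjusted p = 3.4e-07), and 8 were lower. With library totals these 3 were called higher and 9 were lower.

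In macrophages, the brain-border and perivascular phagocytes of the gate, *Abca1* and *Abcg1* fell with LPS on both scales and beyond the shift of the median gene. *Abca1* stood at 525, 544, 554 and 496 CPM in saline and at 120, 69.2, 61.9 and 54.3 in LPS, so that the lowest saline library stood far above the highest LPS library. It fell by 2.38 on the log2 scale (SE 0.21, adjusted p = 8.55e-08), to 0.192 of the saline level, with TMM and by 2.80 with library totals. *Abcg1* stood at 52.9, 59.9, 44.5 and 60.1 in saline and at 14.2, 17.9, 7.62 and 19.8 in LPS, without overlap. It fell by 1.47 (SE 0.26, adjusted p = 0.00016) with TMM and by 1.89 with library totals. *Abcg1* rested on 240 saline and 61 LPS UMIs and passed the low-count filter through the saline libraries, where it was high, so this p carries little weight. *Saa3* rose from 0.00988 to 17.9% of the UMIs of macrophages, and the median gene differed by -0.03 with TMM and by -0.44 with library totals. Of 8 free RNA genes, such as *Ttr* and the haemoglobins, 2 were lower and 1 higher (*S100a8*, by 4.58) in macrophages (median -0.92). In microglia 5 of 9 were lower and 2 higher (*S100a8* by 4.15 and *Mbp* by 0.21, median of the 9 -2.29). After the share of free RNA was subtracted, *Abca1* and *Abcg1* of macrophages fell by 2.54 and 1.67 (adjusted p = 1.05e-07 and 0.00048), and those of microglia gave -0.27 (adjusted p = 0.165) and -0.32 (adjusted p = 0.0671), neither called.

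The enzymes of macrophages were higher with LPS for *Fdps* and *Idi1* on both scales. *Fdps* stood at 17.6, 29.1, 24.7 and 13.4 in saline and at 35.9, 33.4, 33.4 and 46.0 in LPS, a difference of 1.28 ± 0.23 (adjusted p = 0.000247) with TMM and 0.85 with library totals. *Idi1* stood at 23.3, 18.8, 26.4 and 15.0 in saline and at 32.2, 26.3, 36.2 and 36.6 in LPS, where a single pair of libraries met, and differed by 1.04 ± 0.21 (adjusted p = 0.000546) with TMM and 0.62 with library totals. *Sqle* (0.93 ± 0.25, adjusted p = 0.00501) and *Hmgcs1* (0.60 ± 0.19, adjusted p = 0.0156) were called with TMM and not with library totals (0.51 and 0.18). *Cyp51* and *Insig1* gave 0.40 ± 0.40 (adjusted p = 0.431) and 0.08 ± 0.23 (adjusted p = 0.795) with TMM, and *Insig1* gave -0.34 with library totals. In all, 4 members were called higher and 2 lower in a class where 50.2% of 9246 genes were called (24.9% higher and 25.3% lower; 13.9% and 43.4% with library totals). Of the 21 enzymes, 14 were higher and 1 lower with TMM (10 and 1 of the 16 beside the members), and 8 higher and 3 lower with library totals. Among named genes *Ch25h* (4.97 ± 0.49, adjusted p = 4.23e-07) rose, while *Apoe* fell by 2.01 (SE 0.18, adjusted p = 1.49e-07) and *Mylip* by 0.98 (SE 0.20, adjusted p = 0.00053). *Fdft1* (0.82, adjusted p = 0.0118) and *Msmo1* (0.65, adjusted p = 0.0243) were called with TMM only, and *Srebf1*, *Srebf2*, *Insig2* and *Soat1* differed by -0.03 to 0.15 without a call.

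In endothelial cells, the lining of vessels, 5 of the synthesis and sensing members were called higher on both scales, among them *Sqle* and *Cyp51* on few counts. The paper states that the CD45 selection left few endothelial cells and pericytes, which limits what can be learned about them. With TMM 6 members were higher and 1 lower, where 45.6% of 8363 genes were called (22.8% higher and 22.8% lower; 16.1% and 31.6% with library totals). *Hmgcs1* stood at 42.2, 32.2, 47.0 and 45.0 in saline and at 108, 79.1, 135 and 77.2 in LPS. The difference was 1.45 ± 0.20 (adjusted p = 4.26e-06) with TMM and 1.23 with library totals, and no library overlapped. *Idi1* stood at 14.5, 19.0, 23.0 and 26.2 in saline and at 57.1, 55.0, 71.1 and 57.0 in LPS, also without overlap, and rose by 1.70 ± 0.23 (adjusted p = 3.36e-06), or 1.48 with library totals. For *Sqle* the values were 9.23, 5.86, 12.5 and 12.2 in saline and 33.7, 27.5, 37.4 and 20.2 in LPS, a difference of 1.73 ± 0.30 (adjusted p = 7.1e-05), or 1.51 with library totals. It rested on 36 saline and 80 LPS UMIs, and *Sqle* passed the low-count filter through the LPS libraries, where it was high, so this p carries little weight. *Cyp51* (1.04 ± 0.25, adjusted p = 0.002) and *Insig1* (1.03 ± 0.21, adjusted p = 0.000482) were higher on both scales, with 0.82 and 0.80 on library totals. *Cyp51* rested on 67 saline and 92 LPS UMIs, without overlap in CPM, while the libraries of *Insig1* (149 and 200 UMIs) overlapped. *Fdps* was called with TMM (0.74 ± 0.22, adjusted p = 0.0097) and not with library totals (0.51, adjusted p = 0.056), nor without replicate 2 of LPS with DMSO (adjusted p = 0.0519).

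*Abca1* stood at 81.7, 65.9, 97.1 and 69.4 in saline and at 77.5, 44.7, 78.6 and 82.7 in LPS, and its differences of 0.06 ± 0.20 with TMM (adjusted p = 0.819) and -0.16 with library totals were smaller than the spread of the libraries. *Abcg1* stood at 26.4, 26.4, 14.6 and 32.8 in saline and at 2.04, 6.88, 3.74 and 5.51 in LPS, without overlap, and fell by 2.33 (SE 0.44, adjusted p = 0.000171). It passed the filter on low counts through the saline libraries, where it was high, so the p carries little weight. Behind it stood 87 saline and 11 LPS UMIs, free RNA held *Abcg1* at 74.7 CPM in saline and 50.2 in LPS, and after the share of free RNA was subtracted *Abcg1* no longer passed the filter on low counts, so that it was not tested there. Of 17 enzymes tested in endothelial cells, 10 were higher and 0 lower with TMM (5 and 0 of the 12 beside the members), and 9 and 0 with library totals. *Fdft1* (1.27 ± 0.28, adjusted p = 0.000839), *Msmo1* (1.23 ± 0.23, adjusted p = 0.000197) and *Srebf2* (1.06 ± 0.18, adjusted p = 6.51e-05) rose, as did *Ch25h* (5.55 ± 0.23, adjusted p = 3.02e-13). *Apoe* fell by 3.30 (SE 0.23, adjusted p = 2.94e-10), while *Srebf1*, *Insig2* and *Mylip* gave 0.47, 0.09 and 0.06 and were not called. The free RNA genes, such as *Ttr* of the choroid plexus and the haemoglobins, moved with LPS too, with 5 of 7 lower in endothelial cells and a median of -2.05, and apart from the subtraction their part in these falls was not tested.

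In monocytes the members that changed were lower with LPS, and the scaling mattered little there (median gene -0.04 with TMM and -0.08 with library totals). With 24.0% of 11060 genes called (11.6% higher and 12.3% lower; 10.1% and 12.5% with library totals), 4 members were lower and 0 higher. *Fdps* stood at 53.8, 106, 44.9 and 65.7 in saline and at 14.7, 32.3, 17.9 and 24.0 in LPS, without overlap, and fell by 1.64 (SE 0.33, adjusted p = 0.0027). *Cyp51* stood at 19.0, 9.74, 26.9 and 26.6 in saline and at 6.59, 6.23, 10.7 and 7.85 in LPS, where 1 LPS library lay above the lowest saline library, and fell by 1.27 (SE 0.33, adjusted p = 0.0136). *Abcg1* stood at 63.3, 19.5, 66.4 and 49.7 in saline and at 18.2, 17.2, 26.6 and 20.5 in LPS, where the groups overlapped through 1 saline library, and fell by 1.11 (SE 0.30, adjusted p = 0.0141). *Idi1* fell by 1.01 (SE 0.33, adjusted p = 0.0407), a call lost in 9 of 21 alternatives. *Hmgcs1*, *Sqle*, *Insig1* and *Abca1* gave -0.54, -0.84, 0.20 and 0.36 and were not called. The saline libraries held 66 to 219 monocytes and the LPS libraries 782 to 1137, so the saline values rested on few molecules, for instance 6 to 15 UMIs of *Cyp51* per library. Without replicate 2 of saline with inhibitors 1 member was called, and the share of all genes called in that fit is not given here.

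Of the 21 enzymes in monocytes 1 was higher and 6 were lower on both scales (1 and 3 of the 16 beside the members with TMM). *Fdft1* (-0.41), *Msmo1* (-0.13), *Srebf1* (0.04), *Srebf2* (-0.33) and *Insig2* (0.07) were not called. *Nr1h3* (3.90 ± 0.49, adjusted p = 7.8e-05) and *Ch25h* (4.21 ± 0.83, adjusted p = 0.0022) rose, whereas *Apoe* fell by 2.53 (SE 0.34, adjusted p = 0.000125), *Mylip* by 0.97 (SE 0.30, adjusted p = 0.029) and *Soat1* by 0.62 (SE 0.21, adjusted p = 0.0432). Whether *Nr1h3* here, or *Ch25h* in any class, passed the low-count filter through the LPS libraries alone was not examined. The p-values of these rises therefore carry little weight. The free RNA genes moved in the direction of the falls, with 7 of 9 lower and a median of -2.09. Among the 7 was *S100a8* (-2.75), which was higher with LPS in microglia (4.15) and macrophages (4.58). In free RNA itself *Fdps* stood at 32.0 CPM in saline and 34.6 in LPS libraries. Apart from the subtraction of free RNA as an alternative, its part in these falls was not tested.

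**Figure D3:**
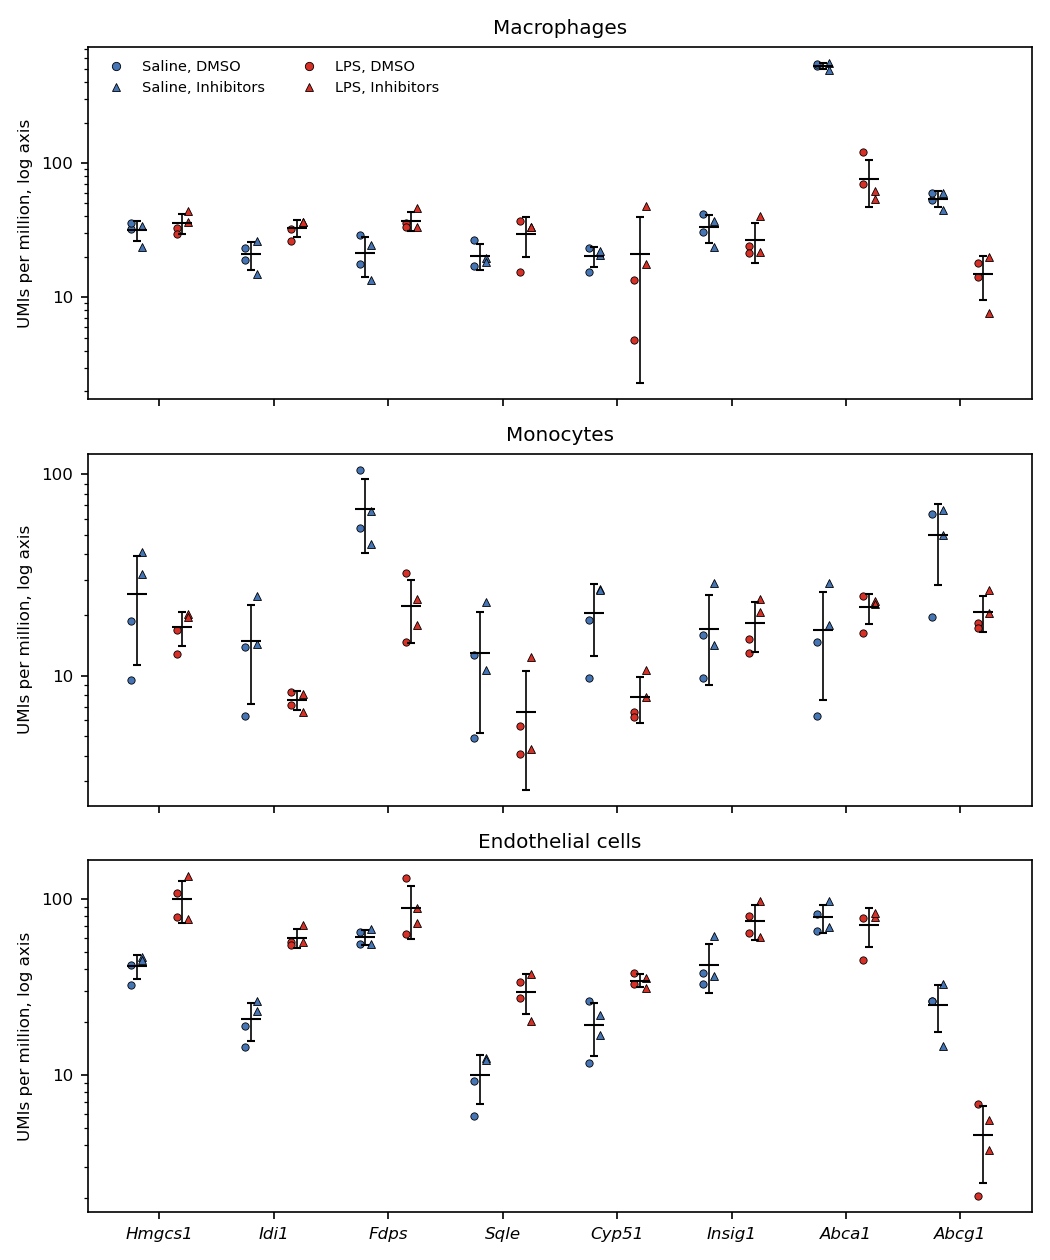
Levels of the 8 genes in macrophages (top), monocytes (middle) and endothelial cells (bottom) in each library, as CPM of the library total on log axes, with circles for DMSO, triangles for inhibitors, blue for saline, red for LPS, and the mean and SD in black. *Abca1* of macrophages was 530 in saline and 76.3 in LPS, *Fdps* of monocytes 67.5 and 22.2, and *Idi1* of endothelial cells 20.7 and 60.1.

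In choroid plexus cells, the secretory epithelium of the ventricles, *Abca1* was higher with LPS, *Insig1* was called on few counts and the enzymes were not called. *Abca1* stood at 36.6, 25.0, 46.5 and 30.2 in saline and at 106, 108, 102 and 55.4 in LPS, without overlap, and rose by 1.06 ± 0.26 (adjusted p = 0.00239) with TMM and by 1.45 with library totals. The median gene of this class differed by 0.03 with TMM and by 0.43 with library totals. On library totals 1571 of 5006 genes were called higher and 305 lower. *Insig1* differed by 1.03 ± 0.38 (adjusted p = 0.0396), with 22 saline and 85 LPS UMIs, a call lost in 13 of 20 alternatives. It passed the low-count filter through the LPS libraries, where it was high, so this p carries little weight. The other 5 members tested gave -0.48 to 0.24 with TMM, *Idi1* did not pass the filter, and 30.9% of 5006 genes were called (15.1% higher and 15.8% lower). Of 10 enzymes tested 0 were called by edgeR, while *Srebf1* (0.98 ± 0.22, adjusted p = 0.00102) and *Lrp1* (0.97 ± 0.19, adjusted p = 0.000223) were higher. *Insig2*, *Apoe*, *Msmo1*, *Fdft1*, *Srebf2*, *Mylip* and *Soat1* gave -0.47 to 0.67 and were not called. In ependymal cells, the ciliated lining of the ventricles, 7 libraries had at least 10 cells. There 0 of the 3 members tested were called by edgeR or by DESeq2, against 30.0% of genes called. Unadjusted p under 0.05 was found for 2 of the 3 members and for 1692 of 4302 genes. With the replicate block *Abca1* was called (0.58 ± 0.21, adjusted p = 0.0317). Without it *Abca1* gave 0.55 ± 0.24 (adjusted p = 0.0869), *Hmgcs1* 0.79 ± 0.37 (adjusted p = 0.111) and *Sqle* -0.17 ± 0.28 (adjusted p = 0.677). In neutrophils *Abca1* alone passed the filter, at -0.69 ± 0.39 (adjusted p = 0.211), with 0 calls by edgeR or DESeq2 and 26.4% of genes called. Its unadjusted p was not under 0.05, as it was for 1656 of 4437 genes. Dendritic cells, B-cells, T-cells, NKs and pericytes had no member past the filter, so their levels stand without a test. *Abcg1* of pericytes had 0 UMIs in LPS libraries and *Idi1* and *Cyp51* of NKs 0 in saline libraries.

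**Figure D4:**
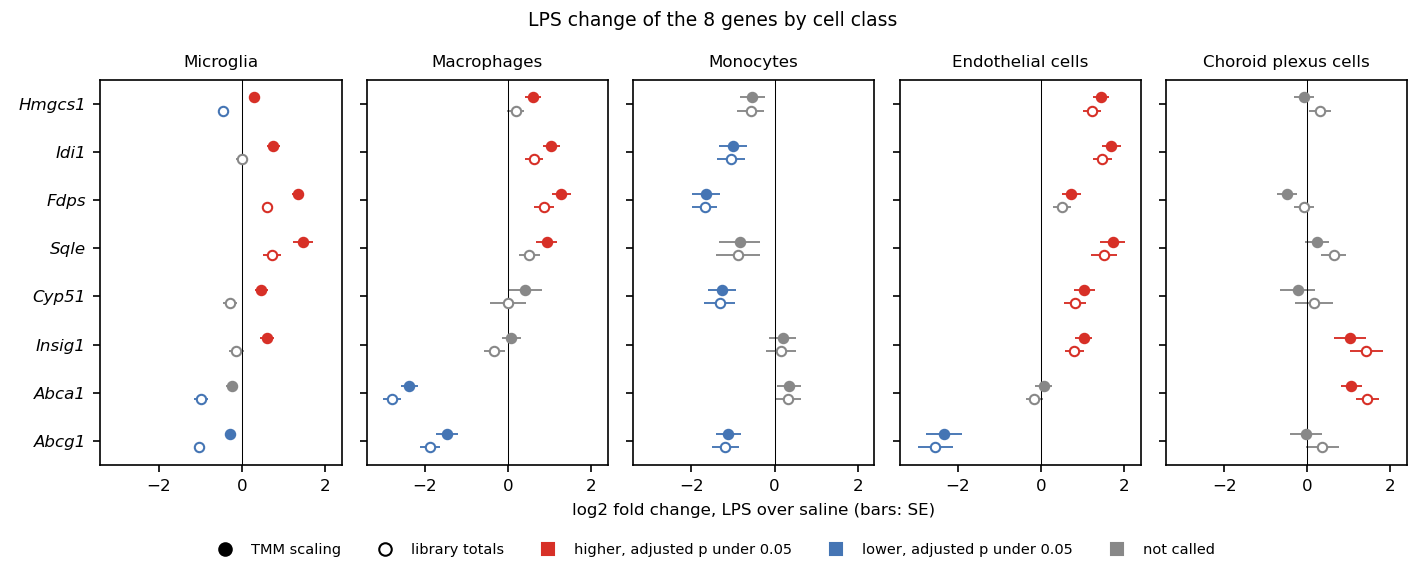
Log2 fold change of LPS over saline with its SE for each of the 8 genes in 5 cell classes, with filled circles for TMM scaling and open circles for library totals, and red for higher, blue for lower and grey for not called. The sign of *Hmgcs1*, *Insig1* and *Cyp51* in microglia turned between the scales, while the falls of *Abca1* in macrophages (-2.38 and -2.80) and of *Fdps* in monocytes (-1.64 and -1.68) and the rise of *Idi1* in endothelial cells (1.70 and 1.48) did not.

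A measure that needs no scaling is the number of UMIs of the 5 enzymes per 100 UMIs of the 2 exporters within the same library. In microglia it was 13.8, 15.2, 14.0 and 17.2 in saline and 24.5, 32.9, 28.9 and 45.1 in LPS libraries, in the order given above, with means of 15.0 ± 1.57 and 32.9 ± 8.87. Macrophages went from 19.6 ± 2.14 to 187 ± 78.8, and endothelial cells from 147 ± 12.4 to 436 ± 138. In these 3 classes the libraries of the groups did not overlap and the LPS libraries were higher. The same held for dendritic cells (294 and 1605), T-cells (175 and 346) and NKs (93.4 and 733), where 1 LPS library of NKs had no exporter UMI and the other LPS libraries of these classes had 1 to 7. In monocytes (247 ± 140 and 148 ± 33.6), choroid plexus cells (333 ± 116 and 184 ± 116) and ependymal cells (108 ± 21.4 and 115 ± 55.8), as in neutrophils (99.9 and 191) and B-cells (97.6 and 143), the groups overlapped. The ratio is a description, without a test, and moves with either of its parts.

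**Figure D5:**
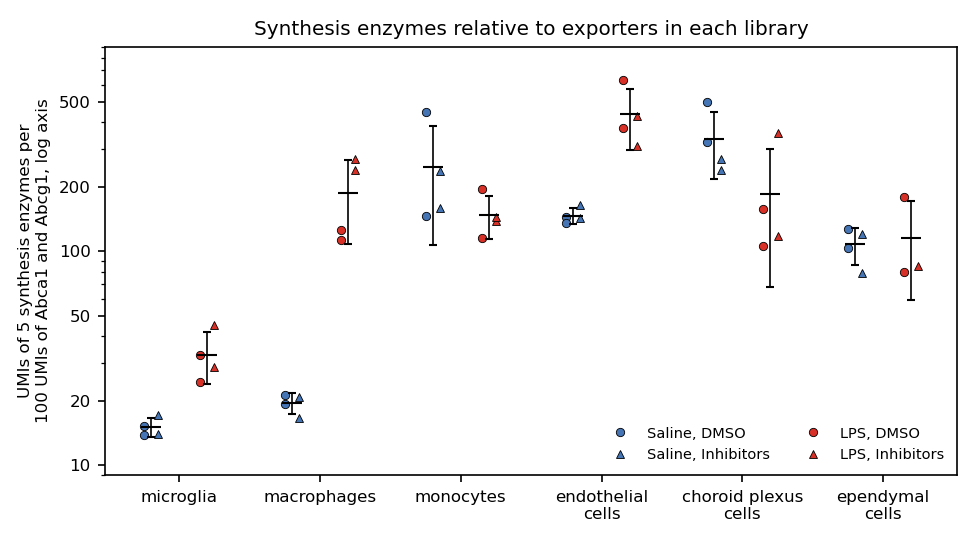
UMIs of *Hmgcs1*, *Idi1*, *Fdps*, *Sqle* and *Cyp51* per 100 UMIs of *Abca1* and *Abcg1* in each library of 6 cell classes, on a log axis, with circles for DMSO, triangles for inhibitors, blue for saline, red for LPS, and the mean and SD in black. The LPS libraries lay above the saline libraries in microglia, macrophages and endothelial cells and overlapped them in monocytes, choroid plexus cells and ependymal cells.

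Whether the LPS change of a member differed between microglia and another class of the same mice was tested directly, with the mouse as a block. Because edgeR's p-values for these fits were very small for differences that rest on 8 mice, an exact two-sided permutation test of the log2 ratio of CPM between the classes is given beside them, whose smallest possible p is 0.0286. That test used CPM of the library total, so its p belongs to a difference on that scale and not to the TMM value beside it. On that scale the differences were 1.67 for *Hmgcs1*, 1.54 for *Idi1* and -0.10 for *Fdps* in endothelial cells, and 1.54 for *Abca1* in monocytes. With labels exchanged only within a batch number, the smallest possible exact p is 0.0556, so that no difference can pass 0.05, and 9 of the 11 called differences reached it. The exact tests used the same mice as edgeR's calls, so they are no independent support. They are given for the members only, without a share over all genes. The 11 differences that were called had adjusted p of 2.22e-43 to 0.0215 by edgeR. Against microglia, *Abca1* of macrophages fell by a further 1.95 (SE 0.14, exact p = 0.0286) and *Abcg1* by a further 1.00 (SE 0.22, exact p = 0.0571), where 23.4% of genes were called and the other 6 members were not. Of these, *Idi1* (0.47 ± 0.28, adjusted p = 0.25 by edgeR) reached an exact p of 0.0286. In monocytes, where 25.9% of genes and 5 members were called, *Fdps* was lower by 2.66 (-2.66 ± 0.28, exact p = 0.0286), *Sqle* by 2.05 (-2.05 ± 0.50, exact p = 0.0571), and *Cyp51* and *Idi1* by 1.41 each (-1.41, exact p = 0.0571 and 0.114). *Abca1* was 0.94 ± 0.30 higher in monocytes than the microglial change (exact p = 0.0286), a call lost with DESeq2 and when any of 3 libraries was left out. *Abca1* had 46 UMIs over the saline libraries of monocytes, where free RNA made up an estimated 4.66 to 8.95% of UMIs. Free RNA of saline libraries held *Abca1* at 218 CPM, so little can be read from this difference. In endothelial cells 32.9% of genes and 4 members were called. *Hmgcs1* (1.10 ± 0.21, exact p = 0.0286) and *Idi1* (0.93 ± 0.30, exact p = 0.0286) rose further than in microglia, and *Abcg1* (-2.12 ± 0.39, exact p = 0.0857, from the same 11 LPS UMIs) and *Fdps* (-0.68 ± 0.21, exact p = 0.543) were lower, the last -0.09 and not called with library totals. With library totals *Cyp51*, *Insig1* and *Abca1* were also called for endothelial cells (exact p = 0.0286 each), where 34.4% of genes were called, and *Hmgcs1* for macrophages (exact p = 0.0286), where 23.3% were called. For neutrophils 0 of the 8 members were called by edgeR or DESeq2, against 15.0% of genes. An unadjusted p under 0.05 was found for 0 members and for 4234 of 17229 genes. However, 7 of the members did not pass the filter in neutrophils alone and had 6 to 20 UMIs over the saline libraries, so little can be read from these counts.

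The inhibitors did not bring any member past the test. Between DMSO and inhibitor libraries 0 of the 8 members were called in microglia by edgeR or DESeq2, where 0.368% of all genes were called. An unadjusted p under 0.05 was found for 0 members and for 821 of 20375 genes. The differences in microglia, DMSO over inhibitors, ranged from -0.40 ± 0.21 (SE) for *Sqle* to 0.13 ± 0.14 for *Abca1*. In macrophages 0 were called by either tool, where 0.606% of genes were called. There 1 member, *Cyp51* with -0.81 ± 0.35, had an unadjusted p under 0.05, as had 364 of 9246 genes. In monocytes 0 were called by either tool, where 0.0452% of genes were called. Unadjusted p under 0.05 was found there for 3 members, *Insig1* (-0.62), *Cyp51* (-0.63) and *Hmgcs1* (-0.57), and for 616 of 11060 genes. The change with LPS in DMSO libraries of microglia was set against that in inhibitor libraries. This gave 0 members called by either tool, where 0.0223% of genes were called. It gave 1 member with an unadjusted p under 0.05, *Cyp51* with -0.60, and 412 of 22440 genes. In endothelial cells, choroid plexus cells, ependymal cells and neutrophils 0 members were called between DMSO and inhibitors by either tool, against 0.0120%, 0.120%, 0.163% and 0.428% of genes. In these classes 1 member had an unadjusted p under 0.05, *Sqle* of ependymal cells with 0.57, where 121 of 4302 genes had one. The standard errors leave room for differences of the size given, so equality was not shown.

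Over 98 profiles of a class in a library with at least 50000 UMIs, the genes whose level followed the mean of the 5 enzymes most closely were *Ctnna1* (Pearson r = 0.742), *Aplp2* (0.701), *Cdc42bpb* (0.692), *Sash1* (0.675) and *Fgfr1* (0.673), followed by *Cystm1*, *Tspan3*, *Niban2*, *Fermt2* and *Pdgfa* (0.647). *Insig1* had an r of 0.523 with the same mean, *Abca1* 0.268 and *Abcg1* -0.06. For *Abca1* they were *Rgmb* (0.702), *Slc38a10* (0.695), *Pmepa1* (0.693), *Ap3d1* (0.686) and *Fam91a1* (0.685). The profiles share libraries, free RNA and depth, and the values describe likeness of pattern over 7341 genes and carry no test.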

How the data were processed

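CD45+ brain cells of 8 mice were measured by single-cell RNA sequencing. The deposited values are raw UMI counts per gene and barcode, which the authors made with PIPseeker v2.0 (STAR alignment, mouse genome written GRCmm39), without normalization or selection of cells; the submitters' processing notes name Seurat 4, whose output was not used here. Cells with 800 to under 45000 UMIs, 250 to under 6500 genes and under 5% mitochondrial counts were kept. A cell entered a class when at least 3 of its markers were detected, their mean log level reached 0.35 of the mean of clear cells of that class (at least 4 markers), and no second class exceeded 0.5 of that value, which stands in for a doublet caller. The members, markers and lists were chosen with earlier results of these data known.

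UMIs were summed per library and class (at least 10 cells, at least 3 libraries a side), filtered with filterByExpr, scaled by TMM and tested with edgeR 4.0.16 in R 4.3.3 (quasi-likelihood, Benjamini-Hochberg over all genes tested, called at adjusted p under 0.05), with the in vivo treatment alone for LPS, the in vivo treatment as covariate for DMSO against inhibitors, their interaction, and the mouse as a block between classes. DESeq2 1.42.0 was an alternative. Each library is 1 mouse. Named besides the members were the 3 genes of each pathway list with the largest called change in microglia, a set of genes of sterol control wherever a class is described (some genes of these lists are not reported here), and the genes most alike in pattern. Library totals without scaling factors, the exact permutation tests, *Saa3* and *Fth1* were added after seeing the data. Scripts were tested on simulated counts in which few genes changed, up and down alike. That setting differs from the wide shift in microglia and does not bear on the choice of scale there. Depth limits rare classes, and standard errors cover the spread of these libraries.

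The labels number batch 1 and 2 in each of the 4 combinations, and the methods describe staggered capture days. Libraries of the same number deviated together (r = 0.199 to 0.735 over 6414 genes for the 6 pairs of groups), so the numbers were taken as pairs, and a replicate block was an alternative.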

Additional observations from a re-analysis of the deposited data

Results flagged for a closer look

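Of 83 groups of 4 libraries examined, 7 held a library that stood apart from the others by its gap over the range, where chance gives about 1 in 20. In macrophages these were *Sqle* in LPS with DMSO 2 (15.5 CPM, group median 33.4) and *Insig1* in LPS with inhibitors 1 (40.0, median 23.0). In endothelial cells they were *Idi1* in LPS with inhibitors 1 (71.1, median 57.1) and *Abca1* in LPS with DMSO 2 (44.7, median 78.0). In choroid plexus cells they were *Hmgcs1* in saline with inhibitors 1 (78.0, median 42.3), *Sqle* in saline with inhibitors 2 (30.2, median 24.9) and *Abca1* in LPS with inhibitors 2 (55.4, median 104).

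Changes with LPS that differed from those of microglia by edgeR's test of the difference numbered 11, of which 5 reached the smallest exact p over all exchanges of mice (0.0286) and 6 did not. Members not called with TMM reached 0.0286 as well, *Hmgcs1* and *Idi1* in macrophages and *Insig1*, *Cyp51* and *Abca1* in endothelial cells. Both tests used the same mice, so reaching this value is no independent support for the calls, and no share over all genes is given. The exact p came from CPM of the library total, whereas edgeR's values are with TMM. With mice exchanged only within a batch number, where no exact p can be below 0.0556, 9 reached that value, and *Idi1* in monocytes (exact p = 0.167) and *Fdps* in endothelial cells (exact p = 0.556) did not. The 11 were *Abca1* (-1.95) and *Abcg1* (-1.001) in macrophages; *Fdps* (-2.66), *Sqle* (-2.05), *Cyp51* (-1.41), *Idi1* (-1.41) and *Abca1* (0.94) in monocytes; and *Hmgcs1* (1.10), *Idi1* (0.93), *Fdps* (-0.68) and *Abcg1* (-2.12) in endothelial cells, each as the log2 change of that class minus that of microglia. The 6 above 0.0286 were *Abcg1* in macrophages (exact p = 0.0571), *Sqle*, *Cyp51* and *Idi1* in monocytes (exact p = 0.0571, 0.0571 and 0.114), and *Fdps* and *Abcg1* in endothelial cells (exact p = 0.543 and 0.0857). *Fdps* in endothelial cells was -0.09 and not called with library totals. *Abca1* in monocytes was not called with DESeq2 and rested on 46 saline UMIs.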

How the results depend on the processing

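With library totals in place of TMM the microglial changes of *Cyp51* (-0.28), *Insig1* (-0.13) and *Hmgcs1* (-0.45) reversed; the 2 scales weigh the same counts differently, and which is nearer to molecules per cell was not tested. Members called for LPS became 3 with DMSO libraries only in microglia and 3 in macrophages; in monocytes 1 with DMSO libraries only and 1 after thinning each cell to 800 UMIs (2 tested); in endothelial cells 1 after thinning (1 tested). In choroid plexus cells the count of 2 became 1 with DESeq2, no filter, the ex vivo covariate, DMSO libraries only, the strict gate, at least 1500 UMIs or free RNA subtracted, and 0 with inhibitor libraries only, a mitochondrial limit of 10% or thinning. Leaving out 1 library gave 5 to 7 members in microglia, 5 to 6 in macrophages, 1 to 4 in monocytes, 6 to 7 in endothelial cells, 1 to 2 in choroid plexus cells and 0 to 1 in ependymal cells. For differences from microglia it gave 2 to 2 in macrophages, 4 to 5 in monocytes and 4 to 6 in endothelial cells. After thinning, 798 of 6057 genes of monocytes were called higher and 769 lower, and in endothelial cells 546 and 516 of 2309 genes. For the other settings the share of all genes called is not given here, so these counts cannot be set against other genes. With the replicate block, the pairing by batch number, the count in ependymal cells became 1 (*Abca1*), and no other count of members left its range of 1.5 times. Of single genes, 2316 values under alternatives kept direction and side of the threshold, 78 lost and 26 gained a call, 16 without a test moved beyond the spread between replicates, and 3 reversed. The cause of these shifts was not tested beyond fewer libraries or counts. Depth limits the dendritic, NK and pericyte values, which rest on 0 to 52 UMIs per gene and treatment.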
